A study of Mus musculus with 3 samples.

Results

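Long internal coding exons are here the exons that are neither first nor last in their transcript, lie wholly in coding sequence and measure 400 nt or more. They were taken from the transcript that Ensembl marks as canonical for each protein-coding gene (GENCODE release M39, genome build GRCm39, also called mm39), by length and annotation alone. Of 158110 internal wholly coding exons, 3470 (2.19%) were this long. They lay in 2760 genes and, being long, made up 14.4% of all internal coding bases, 3369 kb in total. Their median length was 671 nt (quartiles 510 and 968 nt, longest 17997 nt) against 122 nt for the other internal coding exons. The study mapped where the splicing factor Tra2β touches RNA in wild type adult mouse testis, using individual-nucleotide resolution crosslinking and immunoprecipitation (iCLIP). In iCLIP, ultraviolet light joins a protein to the RNA it contacts, an antibody, here a polyclonal one against Tra2β, recovers the protein, and copying of the attached RNA into cDNA stops next to the crosslinked nucleotide. The 3 libraries formed 1 group of biological replicates, each made from testes that were minced to release germ cells before crosslinking, with the cell type labelled as mixed, and no treatment or other genotype was analysed here. No input or control-antibody library was analysed either, so RNA level and crosslinking could not be separated between genes, and the main comparisons were made within a transcript.

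Tra2β is a nuclear RNA-binding protein related to the SR family of splicing regulators. It binds purine-rich RNA built around GAA and favours inclusion of exons that carry such sites. Splicing in mammals mostly recognises exons as short units with a splice site at each end, so very long internal exons are a rare architecture, and they often hold the repetitive, disordered or coiled-coil stretches of very large proteins. Male germ cells express many such proteins in the sperm tail, at meiotic chromosomes and in nuclear speckles.

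The libraries held 348033, 619571 and 488719 crosslinks in replicates 1, 2 and 3, a crosslink being 1 unique cDNA at 1 nucleotide and strand. Between 96.5% and 98.2% of crosslinked nucleotides carried a single cDNA, so values for single nucleotides were not used. Replicate 2, the deepest library, placed the smallest share of its crosslinks in these exons and stood apart in several results below, where its values are given separately. Crosslinks in 1 library are not fully independent molecules, and the intervals given cover counting error only.

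To show what was bound, 41-nt stretches were taken from single exons. In each exon this was the stretch with the most crosslinks in total, among those with at least 2 in each library. Ties went to the stretch nearest the 5′ end, and the stretch is printed for 7 exons. These 7 were picked from the exons with the most crosslinks or called denser than their transcript after their values were seen, to show the heavily crosslinked exons, both exons called denser than the rest of their transcript, and both exons whose stretch held no GAA. Sequences are the sense strand of the GRCm39 genome, 5′ to 3′, as DNA, and every GAA is in capitals.
Nasp exon 6, chr4:116468426-116468466, minus strand: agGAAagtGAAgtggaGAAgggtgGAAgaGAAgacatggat
Lyar exon 6, chr5:38388006-38388046, plus strand: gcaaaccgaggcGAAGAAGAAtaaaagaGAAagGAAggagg
Fsip2 exon 17, chr2:82822064-82822104, plus strand: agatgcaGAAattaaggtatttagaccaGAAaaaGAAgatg
Rpgrip1 exon 18, chr14:52386994-52387034, plus strand: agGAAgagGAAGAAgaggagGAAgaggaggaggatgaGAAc
Usp34 exon 15, chr11:23314018-23314058, plus strand: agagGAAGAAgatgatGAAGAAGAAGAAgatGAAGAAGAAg
Son exon 3, chr16:91456928-91456968, plus strand: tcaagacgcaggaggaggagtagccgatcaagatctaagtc
Cracd exon 9, chr5:77006185-77006225, plus strand: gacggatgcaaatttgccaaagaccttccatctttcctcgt

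The stretch in Nasp, which encodes a histone chaperone, held 19, 11 and 41 crosslinks in replicates 1, 2 and 3, or 11.6% of the exon's crosslinks in 4.21% of its length. In Lyar, which encodes a nucleolar protein, the stretch held 24, 10 and 38 crosslinks, 19.1% of those in the exon in 9.53% of its length. Both stretches held 5 GAA, a number reached or passed by 0.403% of all 41-nt windows in long exons. Their exons were themselves rich in GAA, at 5.54 per 100 nt in Nasp and 6.05 in Lyar, against a median of 2.10 over long exons. The stretches of Fsip2 exon 16, Golga4, C2cd6 and Srrm2, which are not printed, held 2 GAA each, which 22.8% of windows reach or pass. The Usp34 stretch held 9 GAA, which 0.00929% of windows reach. With counts of 7, 2 and 27 it took 33.0% of the crosslinks of its exon in 5.68% of the length. In Rpgrip1 the stretch was 95.1% purine, against 78.1% for the exon and a median of 51.4% over all long exons. In the sperm tail gene Fsip2, whose exon is far longer, the stretch held 2, 7 and 8 crosslinks. These were 1.70% of the exon's crosslinks in 0.424% of its length. In Son and Cracd the stretch held no GAA, whereas 56.2% of all windows hold at least 1. The Son stretch was still 65.9% purine, whereas the Cracd stretch was 41.5% purine in an exon of 61.7%. A window chosen for its crosslinks is a description, and it carries no test.

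Long exons took 8103 crosslinks in replicate 1, 8557 in replicate 2 and 16344 in replicate 3. These were 2.33, 1.38 and 3.34% of the libraries, with exact binomial 95% intervals of 2.28 to 2.38%, 1.35 to 1.41% and 3.29 to 3.40%. The 3 shares did not overlap in their intervals, so the libraries differed beyond counting error. On the sense strand the density was 2.40, 2.54 and 4.85 crosslinks per kb, and on the opposite strand 0.0356, 0.0879 and 0.0389 per kb. The sense strand thus carried 67.5, 28.9 and 125 times as many crosslinks as the antisense strand, with replicate 2 lowest. Of the 3470 exons, 1992 (57.4%) had at least 1 crosslink, compared with 33.4% of the other, shorter internal coding exons. Crosslinks were found in all 3 libraries in 895 long exons. At least 20 crosslinks in the 3 libraries together were found in 336 long exons and at least 100 in 62, while 1478 had none. The 10 exons with the most held 16.6% of all 33004 crosslinks. In such mixed material, the number of cells that make an RNA and its amount per cell cannot be told apart, and either changes such totals.

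Long exons were compared first with the shorter internal exons of the same transcript, to ask whether length changes how densely Tra2β is found on an exon. The crosslinks per nt of long exons were 0.981, 0.984 and 0.977 times those of internal exons under 400 nt in replicates 1, 2 and 3, pooled over 2675 transcripts by the Mantel-Haenszel method, which weights each transcript by its information. The mean log2 ratio was -0.03 ± 0.01 (SD, n = 3). The ratio lay below 1 in 3 of 3 libraries, yet it turned to 0.02 ± 0.07 when only internal exons of 100 nt or longer served as reference, so no difference of stable direction was seen at these depths. When each of the 703 transcripts with at least 20 crosslinks counted once, the median log2 ratio was -0.09 ± 0.05. Including first and last exons in the reference, which brings in untranslated sequence, gave a log2 ratio of 0.54 ± 0.09, positive in 3 of 3 libraries. An exact two-sided sign-flip permutation test over 3 libraries cannot go below p = 0.25, and no p is given for these ratios.

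Across the whole range of exon lengths the ratio was not a steady function of length. Exons under 60 nt had log2 ratios of 0.13, 0.49 and 0.11 over the remaining internal exons of their transcripts. The ratios fell to -0.11, -0.23 and -0.13 in the exons of 300 to under 400 nt, and were below 0 in every library there. Just above the length limit, the 1406 exons of 400 to under 600 nt had 0.04, -0.22 and -0.04, which straddle 0. The 1233 exons of 600 to under 1000 nt had -0.03, -0.15 and -0.01. The 261 exons of 2000 nt or longer, which hold 12020 crosslinks, had -0.05, 0.21 and -0.08. Their median GAA content was 2.57 per 100 nt, against 1.99 in the class of 400 to under 600 nt. The exons of 1000 nt or longer exceeded those of 400 to under 600 nt by a log2 ratio of 0.10 ± 0.24 (SD, n = 3), with values of -0.09, 0.36 and 0.02. The difference was thus carried by replicate 2, and its mean was -0.04 without that library.

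**Figure D1:**
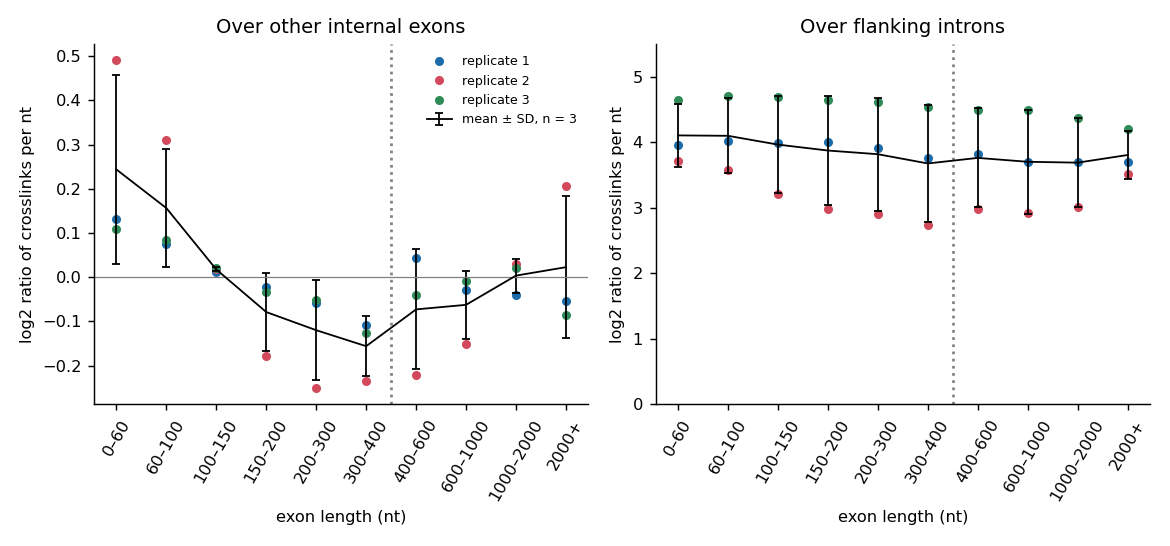
Log2 ratio of Tra2β crosslinks per nt in internal coding exons of each length class (x axis, nt, each class running up to but not including its upper limit) over the remaining internal exons of the same transcripts (left) and over the introns on either side (right). Points are the 3 libraries, the line and bars are the mean ± SD (n = 3), and the dotted line marks 400 nt; all classes lie far above their introns, whereas against other exons the values stay within 0.5 of 0 and replicate 2 is the most spread.

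The introns on either side of each exon, which share its pre-mRNA, gave the second comparison. Long exons carried 13.2, 8.64 and 20.9 times the crosslinks per nt of their flanking introns in replicates 1, 2 and 3 (mean 14.3 ± 6.21, SD, n = 3, over 3430 exons with intron bases to compare). The other internal coding exons carried 15.8, 9.12 and 25.3 times those of their own introns. In each library the value for long exons was the lower of the pair, and each pair was closer than the libraries were to each other. Flanking introns of long exons held 0.118, 0.198 and 0.135 crosslinks per kb, with replicate 2 highest. In these libraries spliced RNA, which has no introns, and its precursor cannot be told apart within an exon.

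Single exons were tested with a two-sided exact binomial test in each library, with Benjamini-Hochberg adjustment over every internal coding exon tested, and a call required 3 of 3 libraries to pass an adjusted p of 0.05 with the same sign of change. Against the other internal exons of the transcript, 2 of 1042 long exons tested were called higher (0.192%), against a background of 0.0422% over all 40332 exons tested, that is 17 calls. None was called lower among the long exons or among all exons, a background of 0%. With unadjusted p under 0.05 in all libraries, 14 long exons were higher (1.34%, against 0.328% of the other exons tested) and 7 lower (0.672%, against 0.0204%). A longer exon has more crosslinks expected, so the exact test passes more readily for it in either direction. The shares of long exons called or passing are therefore not read as a difference from the other exons. A beta-binomial test, which allows crosslinks to cluster beyond binomial sampling, called 0 of 40332 exons in either direction, and with unadjusted p under 0.05 in all libraries 9 long exons were higher and 4 lower. The calls of the exact test thus rest on counting crosslinks as independent. The fold was above 0 on the log2 scale in all libraries for 162 long exons (15.5%, against 7.67% of the other exons tested) and below 0 for 246 (23.6%, against 34.6%). Long exons are likelier to have a crosslink in every library, which a fold above 0 needs, so these shares are not read as a difference in density. The median log2 fold was -0.20 over the long exons and -0.32 over the other exons tested. These folds compare observed with expected crosslinks after adding 0.5 to each, which pulls low counts towards 0.

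The strongest of the 2 exons called was exon 18 of Rpgrip1 (chr14:52386673-52387088, plus strand, 416 nt), from a gene for a ciliary protein that binds the product of Rpgr. It held 42, 24 and 64 crosslinks in replicates 1, 2 and 3. The other internal exons of the transcript, 3483 nt in all, held 92, 31 and 201. Each library was above the 11.0, 3.70 and 24.0 crosslinks that the density of those exons predicts. The log2 fold was 1.94 ± 0.58 (SD, n = 3), with an adjusted p of 8.4e-07 or smaller in each library by the exact binomial test. The exon held 7.93 GAA per 100 nt, against a median of 2.10 over long exons, and was 78.1% purine. Its flanking introns held 3, 1 and 2 crosslinks over 1919 nt.

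Exon 15 of the same Rpgrip1 transcript (chr14:52382490-52382942, 453 nt) was at the other extreme, with 0, 1 and 2 crosslinks where the other internal exons held 134, 54 and 263 over 3446 nt. It held 1.104 GAA per 100 nt and was 43.3% purine. An annotated intron of the gene spans it, so some transcripts leave it out, and how often it was included in these testes was not tested. Its adjusted p by the exact binomial test was 0.00017 in replicate 1, 0.53 in replicate 2 and 1.4e-08 in replicate 3, so it was not called. It was chosen for mention after its values were seen.

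The second called exon was exon 15 of Usp34 (chr11:23313791-23314512, plus strand, 722 nt), from a gene for a large ubiquitin-specific protease. It held 23, 18 and 68 crosslinks, against 106, 41 and 326 over 9379 nt of other internal exons. The log2 fold was 1.73 ± 0.52 (SD, n = 3), and the largest adjusted p over the libraries was 0.022 by the exact binomial test. This exon held 5.68 GAA per 100 nt and was 59.7% purine. Its crosslinks were the more unevenly placed of the pair, since the single stretch printed above took 33.0% of them, against 19.2% in Rpgrip1.

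The calls depended on single libraries. Without replicate 1, 8 of 1042 long exons tested were called higher, among them the pair above and exons of Nipbl, Rif1, Mphosph8, Pcf11 and Acrbp. The share over all exons is not given for calls that leave out 1 library. Such counts are therefore not read as a difference from the other exons. Nipbl loads cohesin onto chromosomes, Rif1 acts in replication timing and repair of DNA breaks, Pcf11 in transcript cleavage, and Acrbp in the sperm acrosome. Exon 30 of Rif1 held 56, 66 and 114 crosslinks where 26.3, 23.2 and 64.2 were expected, a log2 fold of 1.13 ± 0.34 (SD, n = 3) that missed the call through an adjusted p of 0.10 in replicate 1 by the exact binomial test. Exon 10 of Nipbl had a log2 fold of 0.80 ± 0.39 on counts of 57, 42 and 169. Exon 3 of Mphosph8, a gene for a chromatin-silencing protein, held 13, 30 and 46 with a log2 fold of 1.81 ± 0.46. Being called without replicate 1 fixes the direction in replicates 2 and 3. In replicate 1, which played no part in that choice, the exons of Nipbl, Rif1, Mphosph8, Pcf11 and Acrbp also lay above their expected numbers. For the Rpgrip1 and Usp34 exons this was fixed in advance, since their call in 3 of 3 libraries required it.

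Without replicate 2, 4 of 1042 long exons tested were called lower, namely Rpgrip1 exon 15 and exons of Mprip, Dst and D7Ertd443e. The same limit applies to this count. Exon 16 of Mprip, whose product links myosin phosphatase to the cytoskeleton, is 3804 nt long and held 3, 24 and 4 crosslinks, while 3273 nt of other internal exons held 76, 32 and 137. Replicate 2 thus had most of the crosslinks of the exon and the fewest of the rest. Exon 39 of Dst, which encodes the cytolinker dystonin, held 2, 9 and 8 crosslinks over 5292 nt, against 94, 64 and 169 over 17418 nt. Annotated introns span both exons. All 4 exons were named after their values were seen.

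Against flanking introns, 232 of 615 long exons tested were called higher (37.7%), with a background of 14.1% over all 9662 exons tested. None was called lower, a background of 0%, and none was lower with unadjusted p under 0.05 in all 3 libraries by the exact binomial test. An exon entered this test with at least 20 crosslinks in exon and introns together, a minimum that long exons mostly reach through the exon itself, so the larger share is not a finding about length. The log2 fold was above 0 in 3 of 3 libraries for 489 of the 615 (79.5%, against 32.1% of the other exons tested) and below 0 for 23 (3.74%, against 22.4%), with a median of 2.68 against 0.93. Counting each library alone, 59.5, 52.2 and 75.8% of long exons had an adjusted p under 0.05, against 33.2, 21.5 and 47.8% of the others. The same limit applies to these shares. Both exons called against other internal exons were also called against introns. Among the long exons that entered both tests, 229 were called against introns alone.

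Golga4, Lyar and Ccdc181 had the highest fitted log2 folds over introns among the exons called, an order that depends on the 0.5 added to each count. Exon 15 of Golga4 (chr9:118384641-118388851, plus strand, 4211 nt), which encodes a coiled-coil protein of the trans-Golgi network, held 123, 73 and 265 crosslinks while 2500 nt of flanking intron held 0, 0 and 1. Exon 6 of Lyar held 117, 33 and 227 crosslinks in 430 nt, and its introns 4, 1 and 2 in 2707 nt. Exon 3 of Ccdc181 held 72, 13 and 146 crosslinks in 948 nt, and its introns 1, 0 and 1 in 3116 nt. In these exons the introns held at most 4 crosslinks in any library, and the size of the fold is not given.

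The exons with the most crosslinks were led by a pair of neighbours in Fsip2, which encodes a scaffold of the fibrous sheath around the sperm tail. Exon 17 (chr2:82814713-82824371, plus strand, 9659 nt) held 200, 383 and 419 crosslinks in replicates 1, 2 and 3. Exon 16 (chr2:82805183-82814126, 8944 nt) held 161, 416 and 352. Per kb this was 20.7, 39.7 and 43.4 for exon 17, while the other internal exons of Fsip2, exon 16 among them, gave a log2 fold of -0.05 ± 0.04 (SD, n = 3). Exon 16 had folds of -0.34, 0.36 and -0.30, with replicate 2 alone above 0. The same 2 exons thus serve largely as each other's reference, and neither was called.

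Exon 6 of Nasp (chr4:116467600-116468574, minus strand, 975 nt), which the study names and an annotated intron spans, held 172, 105 and 336, a log2 fold of 0.30 ± 0.17 (SD, n = 3) that lay above 0 in 3 of 3 libraries. Exon 14 of Rpgr, which the study also names, from a gene for a ciliary GTPase regulator, held 6, 4 and 15 in 879 nt, and its log2 fold of 0.07 ± 0.52 was smaller than its spread.

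The longest exons of a pair of nuclear speckle genes had folds below 0 in all 3 libraries, without being called. Exon 3 of Son (chr16:91451499-91457468, plus strand, 5970 nt), which encodes a speckle scaffold rich in repeats, held 78, 81 and 198 crosslinks, below the 237, 109 and 364 expected in each library, with a log2 fold of -0.97 ± 0.59. Its reference was only 328 nt long and held 13, 6 and 20 crosslinks, so the expectation was itself uncertain. Exon 11 of Srrm2 (chr17:24034096-24040664, plus strand, 6569 nt), which encodes another speckle scaffold, held 59, 115 and 141 crosslinks where 92.5, 269 and 189 were expected. Its log2 fold was -0.76 ± 0.41, and the adjusted p by the exact binomial test passed 0.05 in replicate 2 alone. Of the remaining exons among the 10 with the most crosslinks, exon 18 of C2cd6 (93, 62 and 242) overlaps an exon of another gene on its strand, so its crosslinks cannot be assigned to 1 gene. Exon 9 of Cracd, whose product regulates actin capping, held 95, 54 and 138 with folds of 1.06, 0.64 and -0.27.

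**Figure D2:**
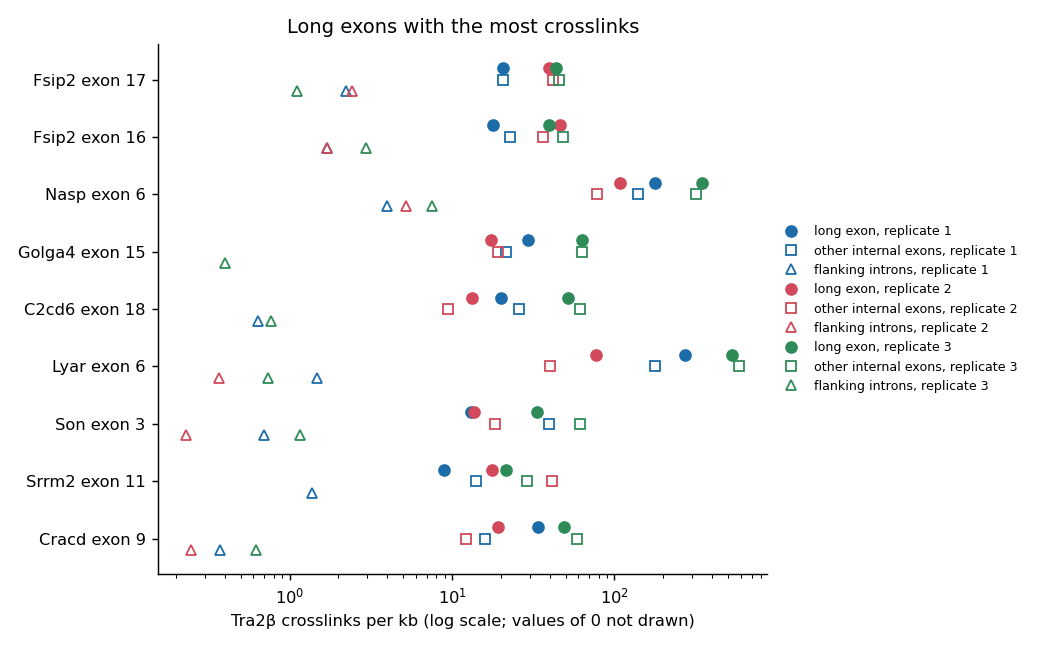
Tra2β crosslinks per kb (x axis, log scale) in each library for 9 of the 10 long exons with the most crosslinks. Filled circles are the long exon, open squares the other internal exons of its transcript and open triangles its flanking introns (a triangle is missing where an intron had 0 crosslinks); circles and squares lie close together for some exons, such as exon 17 of Fsip2 (circles at 20.7, 39.7 and 43.4 per kb), circles lie left of squares in every library for exon 3 of Son and exon 11 of Srrm2, and the triangles lie well to the left of both.

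Along these exons, crosslinks were spread rather than gathered at 1 place. Cut into 4 equal parts, Fsip2 exon 17 held 221, 234, 294 and 253 of its 1002 crosslinks from start to end, and no stretch over 75 nt was free of them. In Fsip2 exon 16 the 4 parts held 263, 183, 269 and 214, with a longest gap of 124 nt. Golga4 had 110, 89, 127 and 135. The last of the 4 parts was the fullest in C2cd6 (166 of 397 crosslinks) and in Son (131 of 357), and the first in Srrm2 (110 of 315) and Nasp (203 of 613). The stretch of Son exon 3 printed above lies in its last part. In Lyar, 204 distinct nucleotides, or 47.4% of the exon, were crosslinked in at least 1 library.

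**Figure D3:**
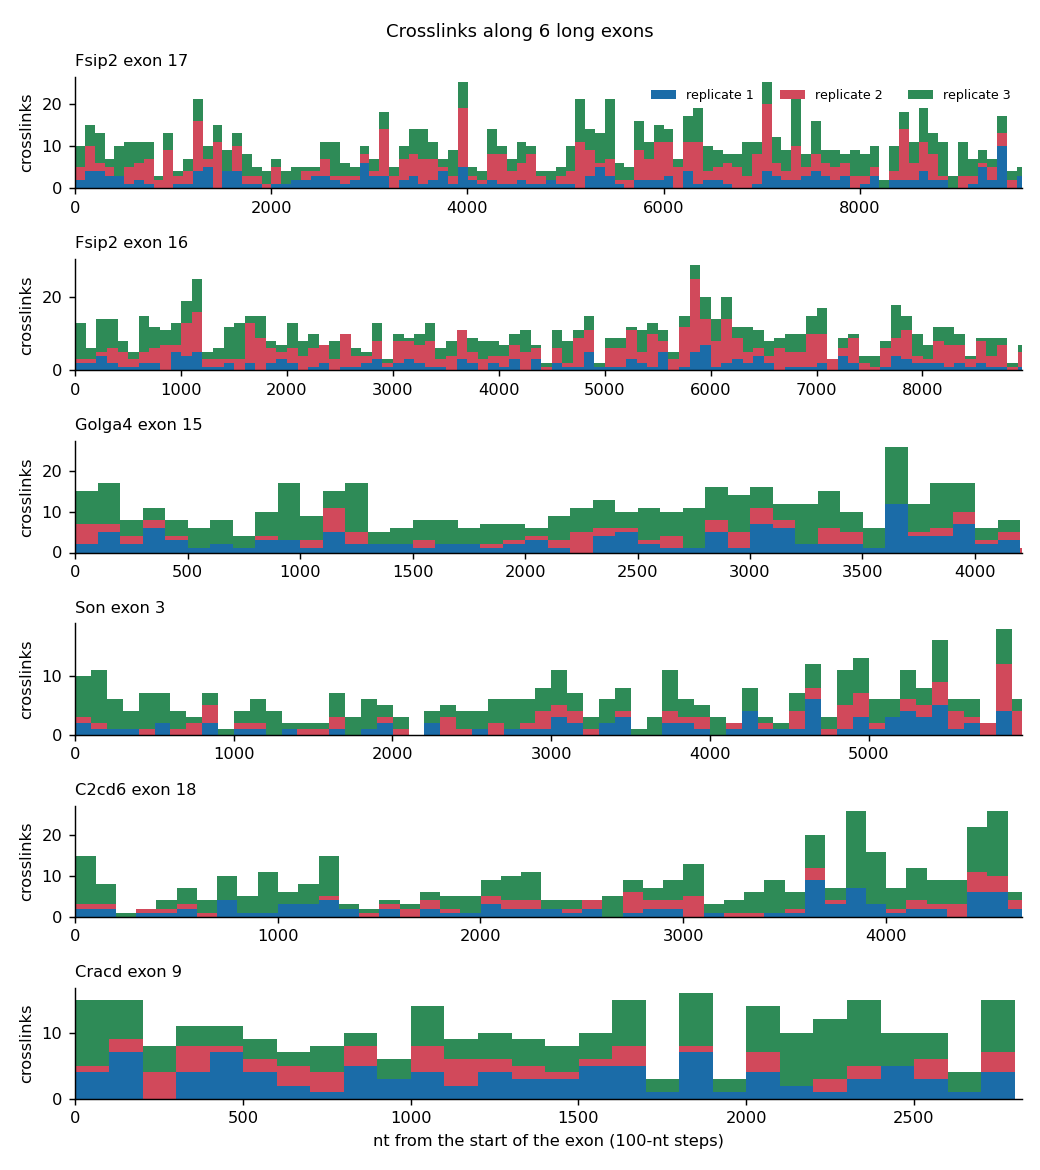
Tra2β crosslinks in steps of 100 nt (y axis, stacked by library) against the distance from the start of the exon (x axis, nt) for 6 long exons. Crosslinks run the whole length of each exon, with more in the last of 4 equal parts of Son exon 3 (131 of 357) and C2cd6 exon 18 (166 of 397).

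The longest exons of all lay in transcripts with few crosslinks anywhere. The longest member, exon 33 of Muc19 (17997 nt, a gel-forming mucin), had 0 crosslinks, as had all other internal exons of that transcript. Exon 3 of Muc17 (12159 nt, a membrane mucin) also had 0, with a single crosslink in the rest of its internal exons. Exon 310 of Ttn, which encodes the muscle protein titin and has the most long exons of any gene (20), held 3, 3 and 4 crosslinks in 17106 nt. The longest exons with at least 20 crosslinks were exon 4 of Muc16 with 7, 6 and 20 in 11544 nt, exon 22 of the kinesin-related Stard9 with 22, 51 and 29 in 9837 nt, and Fsip2 exon 17. The Stard9 exon had log2 folds of -0.12, 1.43 and 1.41 against the rest of its transcript, a mean of 0.91 ± 0.89 that was about as large as its spread.

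The 1478 long exons without a crosslink can be set against the number that the density of their own transcript predicts. The highest expected number was 12.8 for exon 4 of Myo18b (chr5:113021759-113023192, minus strand), an unconventional myosin gene whose other internal exons held 14, 26 and 18 crosslinks. It was 12.4 for exon 40 of Brwd1, which encodes a bromodomain protein needed for spermatogenesis, and 12.1 for exon 3 of the collagen gene Col22a1, where other internal exons held 10, 67 and 11 crosslinks, most of them in replicate 2. Exon 3 of Akna had 9.32 expected and exon 3 of Crybg3 8.10. A count of 0 allows up to 3 crosslinks if crosslinks are independent, which is below each of these numbers. The 5 exons were chosen for the highest expected numbers, so this was fixed by the choice and is no test. None of the 5 exons was called lower in 3 of 3 libraries. Exon 40 of Brwd1 and exon 3 of Crybg3 are spanned by an annotated intron, and their inclusion in testis was not tested.

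Gene groups that often carry long exons were counted from 3 lists drawn up with earlier results of these data known. From 47 genes of genome maintenance and meiosis, 26 had a long exon, and 41 of their 44 long exons were crosslinked. Together they held 2332 crosslinks, 7.07% of those in long exons from 2.44% of the length. Against other internal exons, 0 of 30 tested were called in either direction by the exact binomial or the beta-binomial test, with 2 higher and 0 lower at an unadjusted exact p under 0.05 in all 3 libraries. The median log2 fold was 0.02, beside -0.20 over all long exons tested. Against introns 11 of 23 were called higher, beside 232 of 615 for all long exons and 14.1% of all exons tested. Exon 12 of Cenpf, which encodes a kinetochore protein, had counts of 41, 38 and 96 and a log2 fold of 0.29 ± 0.27. Exon 13 of Rev3l, the catalytic subunit of DNA polymerase zeta, held 35, 34 and 80 with 0.31 ± 0.30, so neither fold stood clear of its spread.

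From 43 genes of RNA processing, 23 had a long exon and all 35 exons were crosslinked, with 1781 crosslinks, 5.40% from 1.58% of the length. None of 32 tested was called against other internal exons by either test, with 2 higher and 0 lower at an unadjusted exact p under 0.05 in all 3 libraries, and the median log2 fold was -0.04. Against introns, 12 of 22 were called higher, beside 37.7% of all long exons and 14.1% of all exons tested. Exon 5 of Acin1, which encodes a nuclear protein of splicing complexes, held 37, 26 and 112 crosslinks with folds of 0.90, -0.22 and 0.85. Exon 13 of Nktr, a cyclophilin gene with an arginine and serine rich tail, held 26, 72 and 57 with folds of 0.39, 0.93 and 0.21, all above 0.

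From 60 genes of the cytoskeleton, cilium and anchoring proteins, 41 had a long exon, and 79 of 93 exons were crosslinked. These held 4314 crosslinks, 13.1% from 5.02% of the length, of which the Fsip2 pair supplied the largest part. None of 86 tested was called against other internal exons by either test, with 0 higher and 1 lower at an unadjusted exact p under 0.05 in all 3 libraries, and the median log2 fold was -0.33. Against introns, 27 of 44 were called higher. Exon 5 of Akap4 (77, 22 and 108 crosslinks) and exon 5 of Akap3 (65, 24 and 115) encode anchoring proteins of the fibrous sheath. Both exons were named for their many crosslinks, so their presence in every library is no check of the labelled tissue. The muscle exon of Ttn given above, named for its length, was near 0. Akap4 had a log2 fold of 0.21 ± 0.14 and Akap3 one of -0.31 ± 0.70. The shares of crosslinks in all 3 lists carry each gene's RNA level in testis with them.

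Long exons were also ranked by crosslinks per kb. Over the 336 long exons with at least 20 crosslinks, the sum of the 3 libraries ran from 2.86 to 877 crosslinks per kb with a median of 36.9. This minimum leaves out short exons of low density, so the ranking is not read as a relation with length. Lyar exon 6 was highest at 877 per kb, but the other internal exons of Lyar had 803. Nasp exon 6 followed at 629 against 536, and Rpgrip1 exon 18 at 313 against 93.0. In Ccdc136 and Spata31f3, replicate 2 gave very few of the crosslinks, with 31, 3 and 113 in exon 14 of Ccdc136 and 34, 3 and 103 in exon 4 of Spata31f3. In Eif5b, which encodes a translation initiation factor, exon 4 held 35, 22 and 91, with a log2 fold of 0.65 ± 0.15 that was above 0 in all 3 libraries but was not called.

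Crosslinks were then mapped from the splice sites, to ask whether Tra2β sits at the ends of long exons. The last 50 nt before the 5′ splice site took 4.60, 7.13 and 4.28% of crosslinks in the 3 libraries, with exact binomial 95% intervals of 4.16 to 5.08%, 6.59 to 7.69% and 3.98 to 4.60%. If each exon spread its crosslinks evenly, 4.80, 4.18 and 4.75% would lie there. Replicate 2 was thus 1.70 times above the even share, replicate 1 included it within its interval and replicate 3 lay below it. In replicate 2 the density was highest 21 to 40 nt before the splice site, at 1.53 times the mean of all long exon bases, where replicates 1 and 3 had 0.911 and 0.921. The first 50 nt took 5.32, 4.01 and 5.54%, with intervals of 4.84 to 5.83%, 3.60 to 4.45% and 5.19 to 5.90%, against the same even shares. Here replicates 1 and 3 were slightly above the even share and replicate 2 was not.

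The same regions were measured in shorter exons, with no test between the classes. Pooled over exons by the Mantel-Haenszel method, the last 50 nt had 0.966, 1.79 and 0.907 times the density of the rest in long exons, and 1.00, 1.94 and 0.994 times in internal exons of 200 to under 400 nt. The corresponding values for the first 50 nt were 1.11, 1.01 and 1.18 in long exons and 1.05, 1.04 and 1.07 in the shorter ones. Replicate 2 was the library with the raised last 50 nt in both classes, whereas the low value of replicate 3 there was seen in long exons alone. Both ends of 100 nt together exceeded the middle of long exons by a log2 ratio of 0.14 ± 0.16 (SD, n = 3), with 0.04, 0.32 and 0.06 in the 3 libraries, a difference within the spread that fell to 0.025 when each exon was weighted equally.

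**Figure D4:**
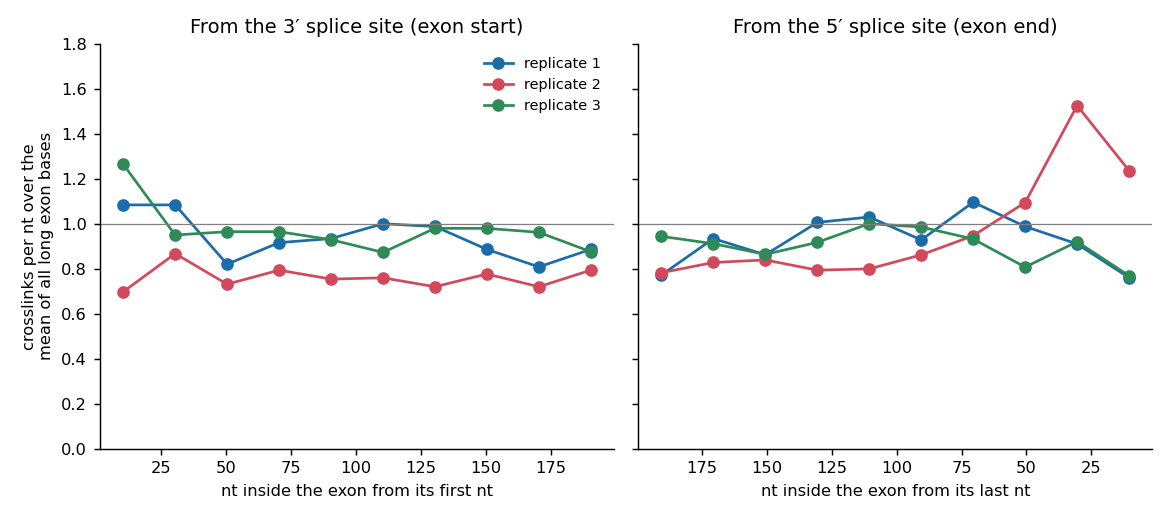
Tra2β crosslinks per nt relative to the mean of all long exon bases (y axis) in steps of 20 nt from the start of the exon (left) and towards its end (right), 1 line per library. Replicate 2 rises to 1.53 at 21 to 40 nt before the end of the exon, where replicates 1 and 3 stay near 0.9, and the highest value at the start of the exon is 1.27, in the first 20 nt of replicate 3.

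Long exons that are rich in GAA carried more crosslinks, relative to their own transcripts, than those that are poor in it. Long exons were divided into 3 groups of equal size by GAA per 100 nt, counted on the sense strand, with limits at 1.61 and 2.58 per 100 nt. Against the shorter internal exons of the same transcripts, the group with the least GAA had log2 ratios of -0.31, -0.83 and -0.41, and the middle group -0.23, -0.21 and -0.20. The group with the most GAA had 0.09, 0.26 and 0.08. The group with the most GAA was above that with the least in 3 of 3 libraries, by 1.32, 2.12 and 1.40-fold, or 0.66 ± 0.37 on the log2 scale (SD, n = 3). Replicate 2 had the widest difference. Against flanking introns the log2 ratios were 2.82 ± 0.63 in the group with the least GAA, 3.15 ± 0.57 in the middle and 4.22 ± 0.61 in the group with the most. The share of exons with at least 1 crosslink was 48.1, 55.9 and 68.3% in this order, at median lengths of 632, 703 and 692 nt.

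From exon to exon the relation was loose. Over the 336 exons with at least 20 crosslinks, GAA per 100 nt and the log2 fold against other internal exons had a Spearman rank correlation of 0.15, 0.28 and 0.16 in the 3 libraries, given as a description since these exons share libraries and base composition. As a class, long exons were slightly poorer in GAA than other internal exons, at a median of 2.10 against 2.26 per 100 nt. They were also slightly poorer in purines (51.4 against 52.8%) and richer in G and C (53.7 against 50.7%).

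Around single crosslinks, GAA within 30 nt was slightly more frequent than an even spread gives in replicates 1 and 3, and further above it in replicate 2. GAA started within 30 nt of 81.4, 86.4 and 82.2% of crosslinks, while 80.2, 79.6 and 81.4% of positions in the same exons would meet this if crosslinks were spread evenly. The ratio of observed to expected share was 1.04 ± 0.04 (SD, n = 3). Within 10 nt it was 1.06, 1.20 and 1.04. The longer motif GAAGA, which contains GAA, was near 31.1, 37.5 and 31.4% of crosslinks against 25.1, 23.5 and 25.9% expected, a ratio of 1.35 ± 0.22 and above 1 in 3 of 3 libraries. In internal exons of 200 to under 400 nt the ratio for GAAGA was 1.19, 1.45 and 1.16, lower than in long exons in each of the 3 libraries, by less than the libraries differed from each other. For CTT, a pyrimidine-rich triplet searched in the same way as a comparison, the ratio was 1.00, 0.927 and 1.00 within 30 nt and 1.07, 0.966 and 1.04 within 10 nt. Within 10 nt, the ratio for GAA was therefore close to that of the comparison triplet in replicates 1 and 3 and higher in replicate 2 alone. For GAAGA within 10 nt the ratio was 1.37, 1.81 and 1.27, above CTT in every library. Motifs were searched on the sense strand only.

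At single-nucleotide resolution the libraries again fell into different patterns. GAA started exactly at the crosslinked nucleotide in 5.02% of crosslinks in replicate 1 and 6.12% in replicate 3, against exon means of 3.16 and 3.23%. In replicate 2 this was 3.02% against a mean of 3.04%, and the highest value, 5.69%, lay 9 nt downstream. Over the 30 nt downstream of the crosslink the mean was 3.41, 4.37 and 3.38%, and over the 30 nt upstream 3.46, 3.50 and 3.50%. All 3 libraries had their lowest value 1 or 2 nt upstream of the crosslink, at 1.79, 2.11 and 1.94%. What sets replicate 2 apart was not tested.

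**Figure D5:**
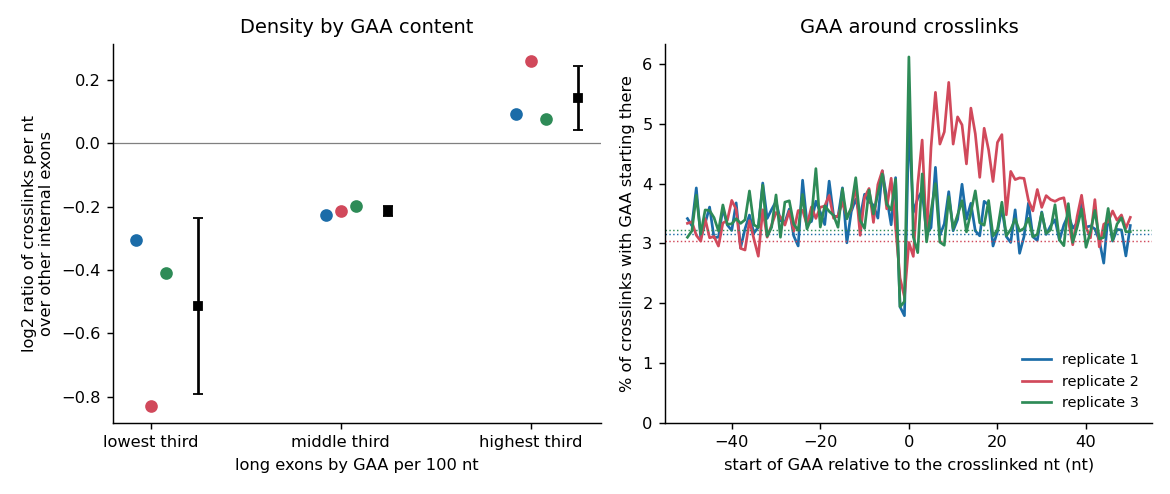
Left, log2 ratio of crosslinks per nt in long exons over the shorter internal exons of the same transcripts, for 3 equal groups of long exons by GAA per 100 nt, with points for libraries and squares with bars for the mean ± SD (n = 3). Right, percent of crosslinks with GAA starting at each distance from the crosslinked nucleotide (x axis, nt, downstream positive), dotted lines giving the exon mean; replicates 1 and 3 peak at 0 (5.02 and 6.12%) and replicate 2 is raised over the first 20 nt or so downstream, with its peak of 5.69% at 9 nt.

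Other features of the exons went with smaller differences. The 804 long exons spanned by an annotated intron of their gene (23.2%, against 26.9% of other internal exons) had log2 ratios of -0.24, 0.01 and -0.18 over shorter internal exons, and those not spanned 0.04, -0.03 and 0.01. Long exons were more often penultimate (14.5 against 10.1%) or second in the transcript (13.2 against 7.13%) than other internal exons. Penultimate long exons had log2 ratios of -0.06, -0.21 and -0.10, and second exons 0.06, -0.03 and 0.09. The length was a multiple of 3 in 44.0% of long exons and 40.5% of the others. Long exons whose length was a multiple of 3 had ratios of -0.06, 0.06 and -0.01, and the remainder -0.01, -0.10 and -0.07, and the 2 groups overlapped.

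Agreement between libraries was described over exons and over single nucleotides, by unlike measures that are not compared. Over the 336 exons with at least 20 crosslinks, the Spearman rank correlation of crosslinks per kb was 0.87 between replicates 1 and 3, 0.42 between 1 and 2 and 0.36 between 2 and 3. Over all 1992 long exons with a crosslink it was 0.63, 0.43 and 0.45 in the same order. Of 30312 distinct crosslinked nucleotides in long exons, 29174 were seen in 1 library, 1094 in 2 and 44 in all 3, or 0.145%. At these depths a nucleotide seen once carries little information, and exons or windows were therefore used throughout.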

How the data were processed

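The authors minced adult wild type mouse testes, crosslinked with ultraviolet light and made 3 iCLIP libraries in biological triplicate, processed with the iMAPS pipeline. The deposited files give counts of unique cDNAs for each crosslinked nucleotide and strand, not normalized, per library. The submitters' processing notes name Trim Galore 0.6.7, Bowtie 1.3.1, STAR 2.7.9a and UMI-tools 1.1.2 and build mm39. How reads that map to several places were treated is not given in the sources used here, and repetitive exons such as those of mucin genes may lose or share crosslinks. All 49 sequence names in the files were found in GRCm39, with 0 positions past a chromosome end.

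Counts were summed per exon and intron on the sense strand with Python 3.11.15, numpy 2.4.6, pandas 2.3.3 and scipy 1.17.1. Intron bases annotated as exon in any transcript on the strand were masked. Libraries were analysed separately, and mean ± SD are over the 3 libraries. Densities were compared by Mantel-Haenszel ratios stratified by transcript or exon. Single exons were tested by the two-sided exact binomial test with Benjamini-Hochberg adjustment within each library over all internal coding exons with at least 20 crosslinks in the compared regions, after the code was tested on simulated data. Expected motif shares were computed over all positions of each exon. Motif and end shares have exact binomial intervals at 95%. Members, lists and tests were chosen with earlier results of these data known.

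Named exons were the 10 with the most crosslinks, up to 8 called in each direction, the 3 longest of all and with at least 20 crosslinks, the Nasp and Rpgr exons, the 5 without crosslinks and the highest expectation, the 3 with the highest fold over introns and the leading 4 of each list. Others are said to be named after their values were seen, or were taken by crosslinks per kb. The alternatives are a different unit of counting, reference, exon threshold, minimum, window or motif, and leaving out each library. Of the long exons, 60 overlap an exon of another gene, 80 are the only internal exon of their transcript and 20 belong to canonical transcripts not typed as protein coding; all were kept. 1 exon that the rule selects is not reported here.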

Additional observations from a re-analysis of the deposited data

How the results depend on the processing

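The log2 ratio of long over shorter internal exons (-0.028) was -0.049 without the 10 transcripts with the most crosslinks, -0.034 without 30 nt at exon ends, -0.060 and -0.011 for exons of at least 300 and 600 nt, -0.0032 for exons spanned by no annotated intron, and -0.092 as a median over transcripts. It reversed to 0.54 with all other exons as reference. With internal exons of 100 nt or longer as reference the mean was 0.019, where replicate 2 alone was above 0. The cause of either change was not tested. The ratio over introns (3.74) was 2.68 as a median over exons. The longest over shortest exons ranged from -0.037 without replicate 2 to 0.19 without replicate 1. Exons called higher than other internal exons numbered 2 to 8 and lower 0 to 4 when 1 library was left out, 1 each with positions counted once, with no minimum and without 30 nt at exon ends, 21 with all other exons as reference and 0 by the beta-binomial test. Those called over introns numbered 141 of 234 with a minimum of 50, and 239 to 343 when 1 library was left out. The log2 ratio of observed to expected motif share (0.052 for GAA within 30 nt) was 0.14 within 10 nt, 0.13 for AGAA, 0.42 for GAAGA and reversed at -0.036 for CTT, another motif by construction. The contrast by GAA content kept its direction under 7 alternatives. The excess at exon ends (0.14) was 0.052 without replicate 2 and 0.025 with each exon weighted equally, where replicate 2 alone was above 0. No paired analysis was possible because the libraries form 1 group, with no second group to pair; contrasts between exon classes are within a library throughout. Only 336 long exons had at least 20 crosslinks.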
